A study of Mus musculus with 120 samples.

Results

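Pre-mRNA of whole mouse liver was followed over the day in wild-type (WT) mice. The 12 libraries analysed were all WT libraries of unfractionated total RNA (UT), out of 120 libraries in the series, and were chosen by their labels alone. They came from C57BL/6 livers taken at 6 times of day 4 h apart, with 2 mice (replicates 1 and 2) at each time. Zeitgeber time (ZT) 0 is the onset of light, and ZT12 is the onset of darkness and of food access, since all mice were fed at night only. The WT mice were males of 8 to 12 weeks, kept in equal spans of light and darkness. For comparison, the mRNA of the same 12 libraries, the pre-mRNA of 12 libraries of nuclear total RNA (NT) from the same WT livers, and the pre-mRNA of 12 UT libraries from Cry1-/- Cry2-/- mice under the same schedule were used. Whole-tissue RNA mixes all cells of the liver, so that fewer cells of a type and less RNA per cell cannot be told apart. Pre-mRNA and mRNA of the same library are written UTI and UTE, and pre-mRNA of nuclear total RNA is written NTI.

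Pre-mRNA holds the introns that splicing removes, and because most introns are short-lived its level follows the recent output of transcription more closely than mRNA does. In liver, as in most tissues, a feedback loop drives daily transcription. The activators BMAL1 (encoded by Arntl) and CLOCK bind E-boxes and switch on the Per and Cry repressors, the REV-ERB repressors (Nr1d1 and Nr1d2) and the PAR bZIP factors (Dbp, Tef and Hlf), which bind D-boxes. REV-ERBs repress Arntl and compete there with the ROR activators, and meals, temperature and hormones impose rhythms of their own on liver genes.

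Each UT library held 6.08 to 11.1 M pre-mRNA counts (median 8.59 M) beside 20.6 to 31.7 M mRNA counts, so that pre-mRNA made up 22.8 to 26.7% of counts. Levels below are CPM of pre-mRNA, with the effective mRNA count of the same library as the denominator. They are not divided by gene length, so they compare libraries within a gene and not genes with each other. The 6 hepatocyte markers summed to between 2313 and 5806 CPM of pre-mRNA, against 63.9 to 193 for 8 Kupffer cell markers, 242 to 366 for 8 endothelial markers and 48.6 to 86.9 for 7 stellate cell markers. No marker of any of these 4 lists was called rhythmic in pre-mRNA, and of all genes tested 1.19% were. In mRNA of the same libraries 3 of the 8 endothelial markers were called and none tested of the other lists, against 10.7% of all genes. In NTI 1 of the 6 hepatocyte markers was called, against 0.563% of all genes. A cosine fitted to the summed pre-mRNA of the markers ranged by 0.65 (log2, trough to peak, highest at ZT11.9) for hepatocytes, 0.56 (ZT0.03) for Kupffer cells, 0.38 (ZT0.30) for endothelial cells and 0.45 (ZT21.3) for stellate cells. The library of ZT4 replicate 1 stood apart in its markers. It had 42041 CPM of hepatocyte marker mRNA, against 74734 to 111544 in the other 11, and the highest Kupffer cell, lymphocyte and proliferating cell sums. The part of these shifts in the rhythms below was not tested, and the count of rhythmic genes without that library is given below.

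A 24 h rhythm passed the test in 127 of 10663 genes (1.19%), with edgeR's quasi-likelihood test of a cosine and a sine together and a Benjamini-Hochberg adjusted p under 0.05. At an unadjusted p under 0.05 there were 1393 genes. The count depended on the fit, with 624 genes by DESeq2's likelihood ratio test, 17 with time as a factor and 25 with a replicate block, all for the rhythm of whole liver pre-mRNA. The fitted log2 range, from trough to peak, lay between 0.73 and 8.16 in the 127 genes (median 2.14), against a median of 0.46 over all genes tested. Ranges above 2, a 4-fold span, were found in 68 genes and above 4 in 13. The peaks fell into 2 parts of the day. Late night held 60 genes (ZT20 to ZT24) and the late light phase 29 genes (ZT8 to ZT12), while 9 genes peaked from ZT0 to ZT4, 5 from ZT4 to ZT8, 10 from ZT12 to ZT16 and 14 from ZT16 to ZT20. When curves were fitted to each replicate series alone, the peaks differed by a median of 0.93 h and by at most 4 h in all 127 genes, which the test on both series together favours.

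**Figure D1:**
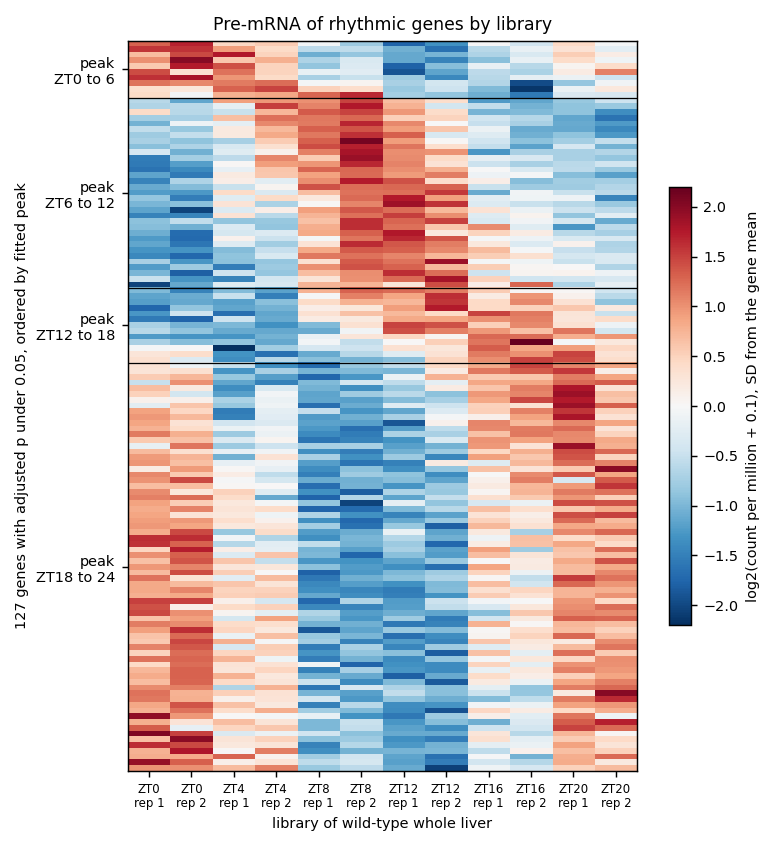
Pre-mRNA of the 127 genes called rhythmic (rows, ordered by fitted peak) in the 12 WT libraries of whole liver (columns), as log2(CPM + 0.1) in standard deviations from the gene's mean. In each library of ZT8 and ZT12, most of the 71 genes with peaks from ZT18 to ZT24 are below their mean and most of the 33 genes with peaks from ZT6 to ZT12 above it, with exceptions such as Cyp2a5 at ZT12 replicate 2.

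The number of calls rested on single mice. Leaving out each mouse in turn gave between 6 calls (without ZT8 replicate 1) and 128 (without ZT4 replicate 1), and the count fell by more than 1.5 times for 9 of the 12 mice. Without replicates 1 and 2 in turn it was 12 and 42 at ZT0, 64 for replicate 2 of ZT4, 6 and 8 at ZT8, 22 and 32 at ZT12, 55 for replicate 2 of ZT16 and 63 for replicate 1 of ZT20. Nr1d1, Nr1d2, Tfpi2, Tns2 and Gstm6 were called in all 12 of these fits. Of the 127 genes, 51 were called in at most 2 of the 12 fits and 4 in none. Among genes described below, Per2, Gys2 and Pgrmc2 were called in 1 of the fits. Cry1, Wee1, Tars, Lhpp, Klf10, Atp2b2, Galnt18 and Gstm4 were called in 2. No peak of a called gene moved by more than 0.98 h in any of the 12 fits.

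**Figure D2:**
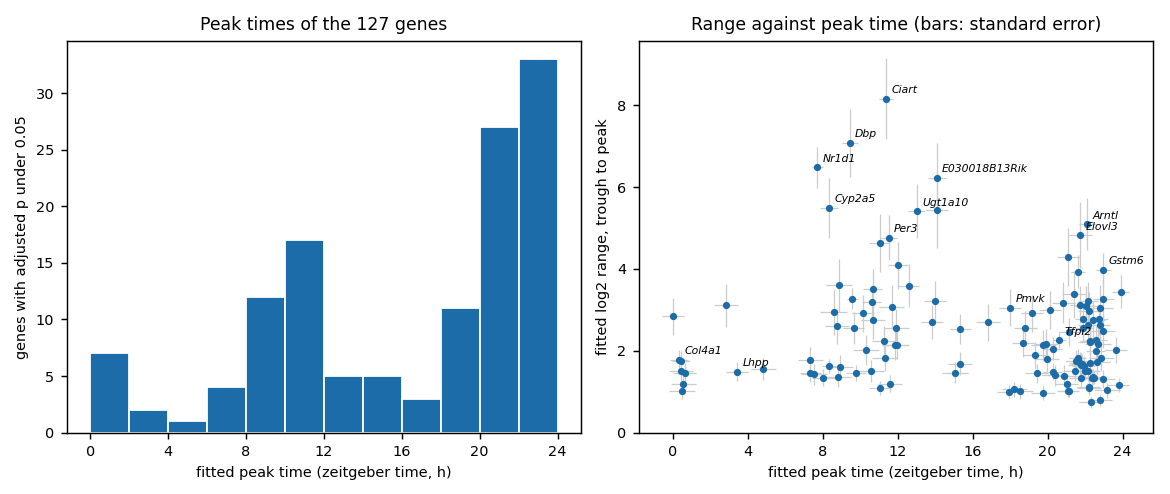
Left, number of called genes per 2 h of fitted peak time, with most from ZT20 to ZT24 (60 genes) and from ZT8 to ZT12 (29 genes). Right, fitted log2 range against peak time for the same 127 genes, where each point is a gene and bars are standard errors, with Ciart (8.16), Dbp (7.08) and Nr1d1 (6.48) at the top.

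Among the clock activators, 3 of 4 measured genes were called, Arntl and Clock among them, against 1.19% of all genes tested. The median range in the list was 2.14. Arntl (ENSMUSG00000055116, chromosome 7, 113207465 to 113314126 of GRCm38, plus strand), which encodes BMAL1, stood at 65.96 and 92.9 CPM at ZT0, 40.3 and 41.6 at ZT4, 2.78 and 2.42 at ZT8, 2.09 and 4.90 at ZT12, 33.3 and 39.1 at ZT16 and 58.1 and 61.2 at ZT20 (replicate 1 first, here and below). It was high in all libraries from ZT16 to ZT4 and low in all 4 at ZT8 and ZT12, with no overlap. Its fitted log2 range was 5.10 ± 0.63 (SE, n = 12) with a peak at ZT22.1, and the adjusted p of edgeR's quasi-likelihood test was 0.034. Clock, the partner of BMAL1, had the same phase (ZT21.5) but a range of 1.74 ± 0.27 (adjusted p = 0.038). Its levels were 88.3 and 100.7 CPM at ZT0 and 23.92 and 24.8 at ZT8. Reads of Clock could include those of a pseudogene, Ube2n-ps1, which overlaps it on the same strand. Rora, a ROR activator, stayed between 111.3 and 233 CPM with a range of 0.53 and was not called (adjusted p = 0.46). Npas2 was not analysed here.

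The clock repressors gave 6 calls of 10 genes, against 1.19% of all genes tested. All 10 had an unadjusted p under 0.05, against 1393 of 10663 of all genes. The median range of the list was 3.37. Nr1d1 (ENSMUSG00000020889, chromosome 11, 98767932 to 98775333, minus strand), which encodes REV-ERBα, had the smallest p of all genes. Its levels were 1.97 and 1.99 CPM at ZT0, 21.3 and 54.3 at ZT4, 50.4 and 58.3 at ZT8, 17.1 and 16.3 at ZT12, 3.38 and 2.43 at ZT16 and 0.948 and 0.367 at ZT20. The 4 libraries of ZT4 and ZT8 lay above all others and the 2 of ZT20 below all others. The fitted range was 6.48 ± 0.49, with a peak at ZT7.71 ± 0.28 and an adjusted p of 0.00197. Nr1d2, which encodes REV-ERBβ, followed with a fitted peak at ZT9.58 ± 0.31, a range of 3.27 ± 0.26 and an adjusted p of 0.00197. It reached 96.8 and 133 CPM at ZT8 and 101.5 and 118.4 at ZT12, and fell to 16.2 and 11.4 at ZT0.

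Ciart, whose product CHRONO represses BMAL1 and CLOCK, had the widest fitted range of the called genes, 8.16 ± 0.99 with a peak at ZT11.4 (adjusted p = 0.013). It was at 0 counts in both libraries of ZT0, where 3 counts would be 0.144 and 0.122 CPM, so the size of its range depends on how these zeros are fitted. It rose to 4.94 and 12.97 CPM at ZT8 and 12.5 and 7.61 at ZT12, and was at 0.330 and 0.233 at ZT20. Per3 (range 4.76 ± 0.55, ZT11.5, adjusted p = 0.020) and Per2 (range 3.21 ± 0.50, ZT14.0, adjusted p = 0.039) followed each other in that order. Per3 was highest in the libraries of ZT8 (131 and 138 CPM) and Per2 in those of ZT16 (169 and 125 CPM). The annotated span of Per3 overlaps that of Camta1 on the same strand, so shared reads are uncertain. Per1 had 39.5 and 36.4 CPM at ZT12 but 10.3 and 1.53 at ZT4 and 17.8 and 53.7 at ZT8, and its range of 3.47 ± 0.80 did not pass (adjusted p = 0.16). Cry1 peaked late, at ZT18.8 (range 2.57 ± 0.41, adjusted p = 0.034), from 8.32 and 6.41 CPM at ZT4 to 51.1 and 54.6 at ZT20. Its 2 mice at ZT0 stood apart, at 13.5 and 42.8 CPM. Cry2 had a range of 1.09 (adjusted p = 0.14), Bhlhe40 of 2.72 (adjusted p = 0.17) and Bhlhe41 of 3.97 at a mean of 0.50 CPM (adjusted p = 0.32).

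**Figure D3:**
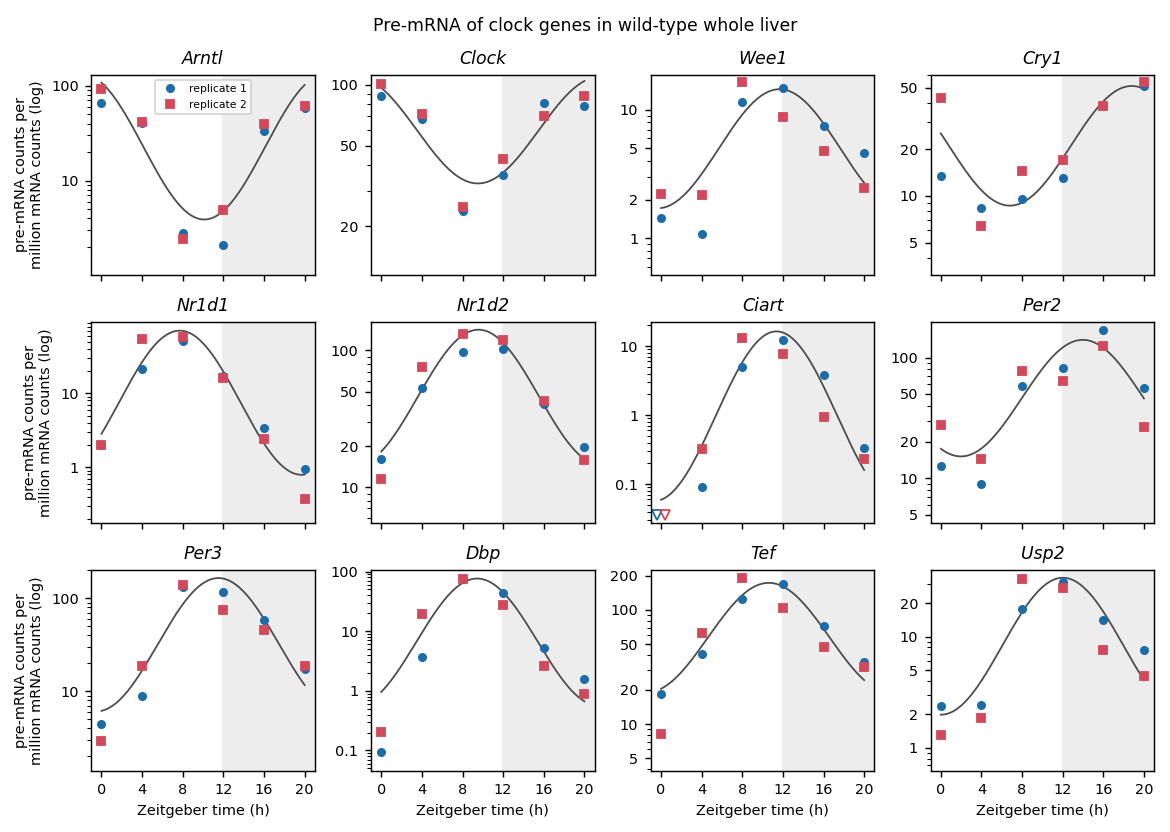
Pre-mRNA level (CPM, log axis) of 12 called clock and clock output genes by zeitgeber time, 1 point per mouse (circles replicate 1, squares replicate 2) with the fitted 24 h curve, and the dark phase in grey. Open triangles mark the 2 libraries in which Ciart was at 0. Peaks run from Nr1d1 (ZT7.71) through Dbp (ZT9.44), Per3 (ZT11.5) and Per2 (ZT14.0) to Cry1 (ZT18.8) and Arntl (ZT22.1).

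Of the D-box-binding bZIP factors, Dbp and Tef were called and Hlf (range 1.21, adjusted p = 0.44) and Nfil3 (range 1.79, adjusted p = 0.17) were not. The share called over all genes was 1.19%. Dbp (ENSMUSG00000059824, chromosome 7, 45705088 to 45710203, plus strand), an activator of detoxification genes, stood at 0.0959 and 0.203 CPM at ZT0, 3.64 and 19.2 at ZT4, 75.3 and 74.1 at ZT8, 44.2 and 27.2 at ZT12, 5.18 and 2.62 at ZT16 and 1.57 and 0.900 at ZT20. Only the libraries of ZT4 and ZT16 overlapped in level, and those of ZT8 were the highest and those of ZT0 the lowest. The range was 7.08 ± 0.83 with a peak at ZT9.44 (adjusted p = 0.015). Tef (range 3.19 ± 0.42, ZT10.6, adjusted p = 0.023) went from 18.3 and 8.14 CPM at ZT0 to 168 and 103.9 at ZT12. Nfil3, a repressor that binds the same element, had its fitted peak at ZT22.1, opposite to Dbp. Its 2 mice of ZT4 were at 38.3 and 12.3 CPM.

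Promoter sequences are shown for 6 called clock genes and 1 called output (Coq10b), to show the elements through which the loop is known to act where one of them lies near the annotated start. They are RefSeq sequences of GRCm38.p6, given 5′ to 3′ on the gene's strand, and cover Ciart (chr3:95882258-95882353, minus strand), Tef (chr15:81802533-81802563, plus), Cry1 (chr10:85185099-85185144, minus), Nr1d1 (chr11:98775387-98775437, minus), Coq10b (chr1:55052595-55052705, plus), Per3 (chr4:151044805-151044885, minus) and Arntl (chr7:113207530-113207555, plus). Capitals mark the E-box CACGTG (Ciart, Tef, Cry1 and the later capitals of Coq10b), its variant CACGTT read on the other strand (the first capitals of Cry1, and Nr1d1), the D-box TTATGTAA on either strand (Per3 and the first capitals of Coq10b) and the core of a ROR and REV-ERB element, TAGGTCA (Arntl).
Ciart: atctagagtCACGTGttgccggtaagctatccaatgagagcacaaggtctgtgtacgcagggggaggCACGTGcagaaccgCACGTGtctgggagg
Tef: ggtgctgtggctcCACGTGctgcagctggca
Cry1: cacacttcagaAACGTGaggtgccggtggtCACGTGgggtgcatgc
Nr1d1: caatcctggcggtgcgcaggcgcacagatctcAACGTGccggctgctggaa
Coq10b: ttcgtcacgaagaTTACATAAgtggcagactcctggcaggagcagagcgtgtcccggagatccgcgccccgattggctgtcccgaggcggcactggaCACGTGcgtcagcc
Per3: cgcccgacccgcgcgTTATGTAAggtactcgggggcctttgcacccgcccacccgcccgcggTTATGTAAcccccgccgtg
Arntl: aaggcagaaagTAGGTCAgggacgga

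Counted from the start, the E-boxes of Ciart begin at bases -116, -58 and -44 and the D-boxes of Per3 at -205 and -158, while the element of Arntl begins at base 31 after the start. The 4 motifs were searched on both strands of each promoter of the table (from 250 bases before the annotated start), and none of them contains another. E-boxes were found in 16 of 99 called genes with a promoter in the table (16.2%) and in 12.3% of all 8509 tested genes with one. The share was 17.9% (5 of 28) for called genes with peaks from ZT6 to ZT12 and 18.5% (10 of 54) for those with peaks from ZT18 to ZT24, against 0 of 6 for ZT0 to ZT6 and 1 of 11 for ZT12 to ZT18. D-boxes were found in 5 of the 99 called genes and in 0.74% of all tested genes, the variant E-box in 10 (6.51% of all) and TAGGTCA in 2 (2.49% of all). These are matches of letters and were not compared by a test. Dbp, Nr1d2, Clock and Usp2 held none of the 4 in this window, and Per2 was not looked up because the promoter table does not list it.

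Clock output genes, listed as direct or indirect targets of the loop, gave 7 calls of 14, against 1.19% of all genes. All 14 had an unadjusted p under 0.05, against 1393 of 10663 of all genes. This list and the clock lists above were chosen with earlier results of these data known, so their counts are no independent support. Usp2, a deubiquitinase (range 4.09 ± 0.57, ZT12.0, adjusted p = 0.029), had 1.302 to 2.43 CPM in the 4 libraries of ZT0 and ZT4 and 17.8 to 32.98 in the 4 of ZT8 and ZT12. Wee1, a kinase that restrains mitosis, peaked at ZT11.7 (range 3.07). Coq10b, a coenzyme Q binding protein, peaked at ZT10.7 (range 2.75), and Por, the electron donor of microsomal cytochromes P450, at ZT10.2 (range 2.91). Gys2, the glycogen synthase of liver, peaked at ZT8.58 (range 2.94 ± 0.56, adjusted p = 0.047), before food became available, with 196 and 389 CPM at ZT8 against 29.3 to 43.7 at ZT0, ZT16 and ZT20. Tars, a threonyl-tRNA synthetase, peaked late at night (ZT20.9, range 1.39). Not called were Nampt (range 2.19), Noct (3.10), Alas1 (3.27), Rgs16 (7.88), Slc45a3 (1.65), Leo1 (1.39) and Tfrc (0.62), at adjusted p from 0.0645 to 0.260.

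Rgs16, a regulator of G protein signalling that responds to fasting, had the second widest fitted range of all named genes but not the call (adjusted p = 0.066). Its levels were 0.0959 and 1.06 CPM at ZT0, 0.0899 and 15.3 at ZT4, 19.5 and 72.9 at ZT8, 92.8 and 4.97 at ZT12, 0.766 and 0.411 at ZT16 and 0.494 and 0.600 at ZT20. Both the ZT4 and the ZT12 mice differed by more than 10-fold. Alas1, the first enzyme of haem synthesis, showed the same kind of spread, with 297 and 745 CPM at ZT12 and 201 and 49.1 at ZT20 (adjusted p = 0.090).

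Outside the clock, the tightest rhythm was that of Tfpi2, a protease inhibitor (ENSMUSG00000029664, chromosome 6, 3962595 to 3988919, minus strand). It stood at 71.2 and 58.1 CPM at ZT0, 42.3 and 44.9 at ZT4, 21.2 and 19.1 at ZT8, 25.2 and 29.2 at ZT12, 61.7 and 75.1 at ZT16 and 110.9 and 100.4 at ZT20. The 4 libraries of ZT8 and ZT12 lay below all others and the 2 of ZT20 above all others, and the range was 2.25 ± 0.20 with a peak at ZT20.6 (adjusted p = 0.0022). Tns2, which links integrins to actin, had a range of 1.63 ± 0.16 and peaked at ZT8.33 (adjusted p = 0.0044), from 10.9 to 16.0 CPM at ZT20 and ZT0 to 35.95 and 37.03 at ZT8. Chka, a choline kinase, peaked at ZT21.6 with a range of 3.93 ± 0.40 (adjusted p = 0.013). Chka held 13.8 to 36.7 CPM in the 4 libraries of ZT8 and ZT12 and 97.5 to 337 in the other 8.

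Several other genes that peaked late at night encode enzymes. Elovl3, a fatty acid elongase, peaked at ZT21.7 with a range of 4.83 ± 0.80 (adjusted p = 0.040) and went from 1.34 and 1.66 CPM at ZT8 to 42.04 and 55.9 at ZT20. Clpx, a subunit of a mitochondrial protease that also acts in haem synthesis, had a range of 2.76 (ZT21.9, adjusted p = 0.013). B3gat3 (range 1.35, ZT22.5), which builds the linker of proteoglycans, and Fam222a (range 1.81, ZT21.6) were called with it. Tymp, thymidine phosphorylase, peaked at ZT23.9 with a range of 3.44 ± 0.40 (adjusted p = 0.019), but its span overlaps that of Sco2 on the same strand. Atp2b2, a calcium pump, had a range of 4.30 at an adjusted p of 0.0499, with 2.23 and 15.6 CPM in the 2 mice of ZT20.

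The 10 genes that peaked between ZT0 and ZT6 had lower ranges (median 1.53). Col4a1 and Col4a2, the collagen IV chains of basement membranes, are neighbours that share a promoter region, and peaked together at ZT0.31 and ZT0.62 with ranges of 1.78 ± 0.23 and 1.46 ± 0.24. Col4a1 had 38.2 and 38.5 CPM at ZT0 and 10.6 and 7.99 at ZT12. Non-parenchymal cells are their usual source. The summed pre-mRNA of endothelial markers had a range of 0.38 and a peak at ZT0.30, that of Kupffer cell markers 0.56 and ZT0.03, and that of stellate cell markers 0.45 and ZT21.3. Whether cell composition has a part in the rhythms of Col4a1 and Col4a2 was not tested. Tspan18, a tetraspanin, and Galnt18, a glycosyltransferase, both peaked at ZT0.43 with ranges of 1.76 and 1.497. Lhpp, a histidine phosphatase, was the latest of the named members of this window (ZT3.42, range 1.49), with 96.5 and 104.2 CPM at ZT4 and 36.03 and 21.6 at ZT16.

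In the light phase, Cyp2a5, a cytochrome P450 that oxidises coumarin and is a target of DBP and its relatives, had a range of 5.50 ± 0.73 and a peak at ZT8.33 (adjusted p = 0.023). Its levels were 1.97 and 2.93 CPM at ZT0, 8.86 and 21.9964 at ZT4, 35.5 and 67.3 at ZT8, 44.002 and 3.82 at ZT12, 4.19 and 1.27 at ZT16 and 1.69 and 0.933 at ZT20. The 2 mice of ZT12 disagreed, with replicate 1 second only to ZT8 replicate 2 and replicate 2 below both libraries of ZT4. Klf10, the only called member of 6 tested immediate early genes (against 1.19% of all genes), peaked at ZT8.87 (range 3.598, adjusted p = 0.047). Nrg4, a secreted factor, peaked at ZT10.7 (range 3.52), and Pfkfb3, which raises the allosteric activator of glycolysis, at ZT12.6 (range 3.59). The genes E030018B13Rik (range 6.23, ZT14.1) and A930033H14Rik (range 4.62, ZT11.0), were also among the widest. Ugt1a10 had a range of 5.42 (ZT13.0), but its first exon joins exons shared by all Ugt1a genes and its span overlaps those of other Ugt1a genes, so the gene of origin is uncertain.

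Lists of other pathways gave few calls, and of all genes tested 1.19% were called. An unadjusted p under 0.05 was reached by 1393 of all 10663 genes. Of 26 genes of sterol synthesis and uptake, 2 were called, Pmvk (phosphomevalonate kinase, ZT18.0, range 3.06) and Hmgcs1 (the synthase before HMG-CoA reductase, ZT19.9, range 2.17), and 17 had an unadjusted p under 0.05. The median range of this list was 1.402, against 0.46 over all genes. Hmgcs1 stood at 39.2 and 33.6 CPM at ZT0 and 66.4 and 26.4 at ZT20, against 8.54 to 18.5 at ZT4 and ZT8. No gene was called among 20 of fatty acid synthesis, where Scd1 had a range of 3.66 but 221 and 24.8 CPM in the 2 mice of ZT20 (adjusted p = 0.13). None was called among 19 of gluconeogenesis and amino acid breakdown, although 12 had an unadjusted p under 0.05. Fbp1 (range 1.79, ZT7.11) and Sds (range 2.43, ZT8.65) had the smallest p there, with adjusted p of 0.072 and 0.079. Abcb11, the bile salt export pump, had a range of 2.76 at ZT22.3 and missed the threshold (adjusted p = 0.052), the nearest of 12 genes of bile acid synthesis and transport. Fkbp5, a glucocorticoid target, had 163 and 179 CPM at ZT12 and at most 59.8 at any other time (range 2.76, adjusted p = 0.066).

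Sdf2l1, a chaperone partner in the endoplasmic reticulum, had 1.82 and 10.1 CPM at ZT0, 3.87 and 5.05 at ZT16 and at most 0.412 in the other 8 libraries (range 7.43, adjusted p = 0.19). Calr followed with 16.6 and 53.6 CPM at ZT0, 25.1 and 30.1 at ZT16 and 4.04 to 8.13 elsewhere (adjusted p = 0.33). None of 18 genes of the unfolded protein response was called, with a median range of 2.28, and none of 17 heat shock genes. In mRNA of the same libraries 7 and 9 of them were called, against 10.7% of all genes. No pre-mRNA call was made among 76 cytosolic ribosomal proteins (median range 0.61), 45 proteasome subunits (0.28) or 88 respiratory chain subunits (0.37). In mRNA 1, 2 and 1 of these were called. With 1.19% of all genes called in pre-mRNA, the lack of calls in lists of these sizes says little about their members. No gene passed for an added 12 h component by edgeR's quasi-likelihood test (0%, smallest adjusted p = 0.37, 322 genes at an unadjusted p under 0.05). Arntl had the second smallest p of that test, with a 12 h range of 1.95, at an adjusted p of 0.48.

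How far the rhythm of mRNA resembled that of its pre-mRNA was compared within the same libraries, which share their normalisation. In UTE 1252 of 11728 genes were called (10.7%). The biological coefficient of variation was 0.27 for UTI and 0.15 for UTE. Of the 127 genes called in UTI, 89 were also called in UTE (70.1% of the UTI calls and 7.11% of the UTE calls). In these 89 the mRNA peaked later than the pre-mRNA in 87, by a median of 2.02 h (quartiles 1.32 and 3.14 h). The mRNA range was the smaller in 72 (median 1.54, against 2.24 for pre-mRNA). All 89 had to pass in pre-mRNA, the noisier of both, which favours genes with wide fitted pre-mRNA ranges. The part of this selection in the smaller mRNA ranges was not tested. Nr1d1 moved from ZT7.71 to ZT8.08, with ranges of 6.48 and 6.60. Elovl3 had its mRNA peak at ZT0.46 with a range of 3.79.

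A difference in rhythm between pre-mRNA and mRNA passed in 6 of 10633 genes (0.0564%), by edgeR's quasi-likelihood test with each library as a block. Gstm6, a glutathione S-transferase, was the clearest (adjusted p = 0.0094). Its pre-mRNA stood at 10.7 and 9.07 CPM at ZT0, 2.56 and 2.69 at ZT4, 0.384 and 1.02 at ZT8, 0.494 and 0.637 at ZT12, 1.62 and 1.72 at ZT16 and 5.07 and 2.70 at ZT20. The mRNA of the same libraries lay between 29.8 and 77.7 CPM and was not called rhythmic. The log2 range was 3.98 ± 0.40 for pre-mRNA and 0.48 for mRNA. The Gstm genes are near-identical neighbours and reads may be shared between them, and Gstm1, Gstm2 and Gstm4, named here after their values were seen, were called in UTI as well (ranges 2.47, 3.27 and 3.09). Cyp2a5 had a range of 5.50 in pre-mRNA and 2.06 in mRNA, which peaked 5.18 h later (adjusted p = 0.045), with 675 and 468 CPM at ZT12 and 110 and 161 at ZT4. Vps13a, a lipid transfer protein, had similar ranges (1.20 and 0.98) but peaks at ZT11.6 and ZT15.7, and Pgrmc2, a haem chaperone, at ZT19.8 and ZT1.86 (adjusted p = 0.045 for both). Cyp2c23 had a range of 1.95 in pre-mRNA (ZT3.66) and 0.37 in mRNA (adjusted p = 0.045), and Ugt1a10, with the limits above, 5.42 and 1.20 (adjusted p = 0.031). Without single mice this count lay between 0 and 7, and with no block 14 genes passed, 3 of them the same.

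**Figure D4:**
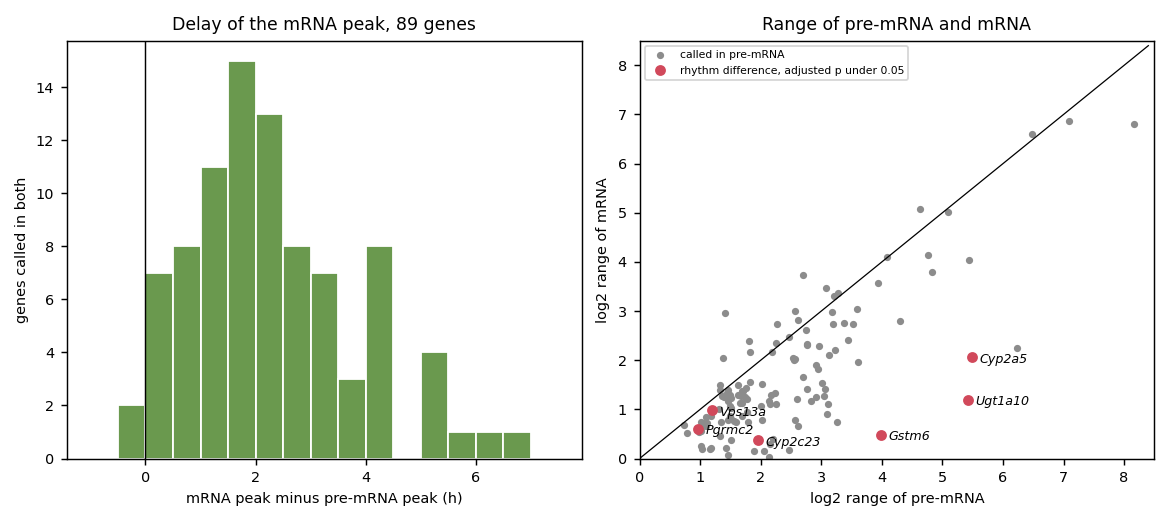
Left, mRNA peak minus pre-mRNA peak (h) for the 89 genes called in both, with a median of 2.02 h. Right, log2 range of mRNA against that of pre-mRNA for the genes called in pre-mRNA (grey) and the 6 genes whose rhythm differed between both (red), with the line of equal ranges. Gstm6 (3.98 and 0.48) and Cyp2a5 (5.50 and 2.06) lie far under the line.

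Nuclear total RNA holds more pre-mRNA per library, 71.99 to 78.7% of its counts, and was used to compare the rhythms of whole-liver pre-mRNA with those of nuclei. In NTI 63 of 11189 genes were called (0.563%). No gene passed for a difference in rhythm between UTI and NTI by edgeR's quasi-likelihood test (0%, 64 of 10650 genes at an unadjusted p under 0.05, smallest adjusted p = 1.0). None passed with the mouse as a block either (289 at an unadjusted p under 0.05). The fit without the block counts variation that both RNA populations of a mouse share as error. That no gene passed therefore does not show that the rhythms are the same. The fitted nuclear peak lay within 2 h of the UTI peak in 124 of the 127 called genes, with a median distance of 0.32 h, and the median nuclear range was 1.97. Side by side, the ranges were 6.48 and 6.28 for Nr1d1, 7.08 and 6.54 for Dbp, 5.10 and 4.53 for Arntl, 8.16 and 8.23 for Ciart and 3.98 and 4.08 for Gstm6. Both populations come from the same livers, so these values are not independent of each other. The divergence of single mice was there too, as Cyp2a5 had 395 and 34.7 CPM, here per mRNA counts of the nuclear library, at ZT12.

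Whether these rhythms need the cryptochromes was compared with the UT libraries of Cry1-/- Cry2-/- mice. As a check of the labels, Cry1 mRNA was 7.05 to 11.7 CPM in the knockout and 6.66 to 55.7 in WT, and Cry2 mRNA 12.9 to 20.99 against 20.2 to 65.5. Their pre-mRNA remained, at 22.4 to 98.2 CPM for Cry1 and 34.8 to 56.5 for Cry2, and so says nothing of the loss of protein. The knockout library of ZT20 replicate 1 stood apart, with 14.4% pre-mRNA against 31.4% as the knockout median. In the knockout, no gene was called rhythmic by edgeR's quasi-likelihood test (0%, 416 of 10686 genes at an unadjusted p under 0.05).

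The difference in rhythm between genotypes passed in 19 of 10575 genes (0.18%), and in 23 without the knockout library of ZT20 replicate 1. Leaving out other mice lowered the count to between 8 and 12 for 7 of the 24, namely both WT mice of ZT8, WT ZT12 replicate 1, knockout ZT0 replicate 1, knockout ZT8 replicate 2 and both knockout mice of ZT12. All 19 had a smaller range in the knockout (median 0.54, against 3.27 in WT), and 18 of them were among the 127 genes called in WT. The count filter was set on the WT libraries and not on the knockout alone, and its part in this direction was not tested. Clock genes led the list. Nr1d1 had a range of 0.37 in the knockout (adjusted p = 0.00014 for the difference) with levels from 4.85 to 20.6 CPM, inside the span of WT. Ciart, at 0 in WT at ZT0, had 10.3 and 15.05 CPM there in the knockout and never fell under 10.3 (range 0.66, adjusted p = 0.00059). Dbp had a range of 0.41 (adjusted p = 0.0010), with 10.5 to 31.2 CPM in all 12 knockout libraries against 0.0959 to 75.3 in WT. Arntl lay between 15.2 and 32.5 CPM (range 0.54, adjusted p = 0.0070). Per3 (range 0.24, adjusted p = 0.0076), Nr1d2 (0.51, 0.024) and Tef (0.20, 0.025) also differed.

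Among genes outside the loop, Tymp (range 1.26 in the knockout, adjusted p = 0.00063) and Clpx (1.18, adjusted p = 0.0069) differed. Their fitted knockout peaks lay in the light phase, at ZT7.84 and ZT9.07, against ZT23.9 and ZT21.9 in WT. No gene was called rhythmic in the knockout, so the knockout peaks given here are of fits that did not pass. The lowest knockout value of Clpx came from ZT20 replicate 1, the library that stood apart in its share of pre-mRNA. Cyp2a5 was nearly flat, with a range of 0.11 (adjusted p = 0.024), and Elovl3 had a fitted range of 2.34 with a peak at ZT5.76 (adjusted p = 0.024). Gstm6 had a fitted range of 2.50 with a peak at ZT19.4 (adjusted p = 0.048), and B3gat3 0.30 (adjusted p = 0.036). Slc45a3 was the 1 gene of the 19 that was not called in WT (ranges 1.65 and 1.19, adjusted p = 0.018). No difference passed in the lists of sterol synthesis and uptake, fatty acid synthesis or gluconeogenesis and amino acid breakdown. With 0.18% of all genes passing, this says little about lists of these sizes. The median ranges there were 1.402 and 1.88, 1.09 and 1.15, and 1.15 and 1.13 in WT and knockout. Rgs16 had 205 and 235 CPM at ZT8 and 6.58 to 18.2 from ZT16 to ZT20 in the knockout (range 4.41, adjusted p = 0.78 for the difference). Pmvk (range 2.05) and Hmgcs1 (3.06) had fitted knockout peaks at ZT18.8 and ZT18.1, near their WT peaks. Neither difference passed edgeR's quasi-likelihood test (adjusted p = 0.98 for both), and neither gene was called rhythmic in the knockout. The 2 knockout mice disagreed for Hmgcs1, with 87.2 and 20.3 CPM at ZT16 and 25.5 and 184.9 at ZT20. The value of 25.5 is from the library that stood apart in its share of pre-mRNA.

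**Figure D5:**
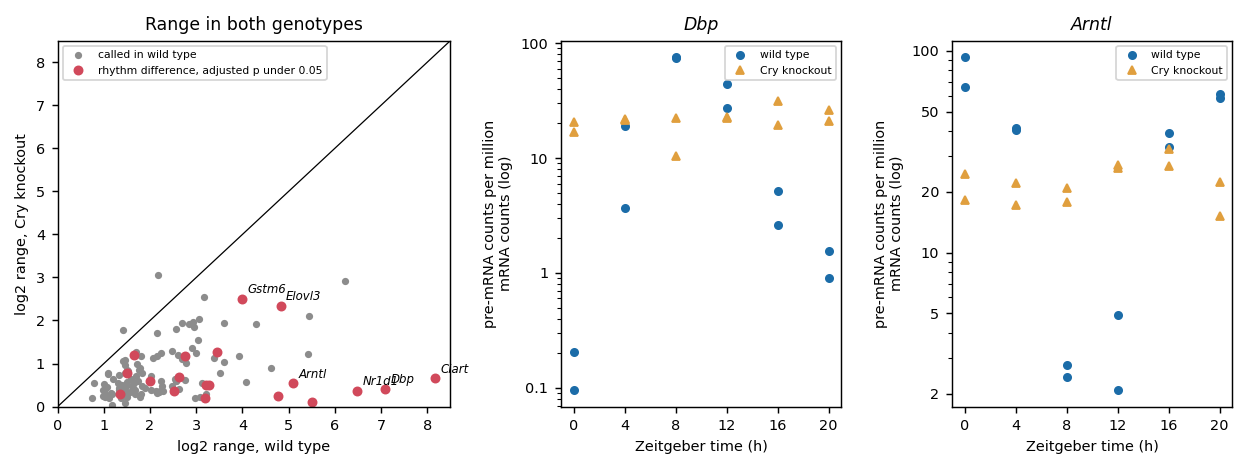
Left, log2 range in the knockout against WT for the genes called in WT (grey) and the 19 genes whose rhythm differed between genotypes (red), all 19 below the line of equal ranges. Middle and right, pre-mRNA CPM (log axis) of Dbp and Arntl by zeitgeber time, 1 point per mouse, where the 12 knockout values lie between 10.5 and 31.2 for Dbp and between 15.2 and 32.5 for Arntl.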

How the data were processed

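Total RNA of unfractionated liver was depleted of ribosomal RNA and sequenced by the authors with a stranded kit. The authors estimated counts with kallisto 0.46.0 on pre-mRNA and mRNA of each GRCm38 transcript together, left out weakly expressed isoforms and deposited these estimated counts summed per gene, not normalised. By the paper's methods, the reference also held rat sequences, because a rat liver spike-in had been added that was finally left unused. Of 12383 rows, 131 repeats were merged, 25 share their values with another symbol, and 536 single-exon genes have pre-mRNA and mRNA of the same sequence. No single-exon gene was called. Counts were rounded. Effective library sizes were mRNA sums times TMM factors estimated on mRNA, also for pre-mRNA (within NT alone for NTI, over both genotypes for their comparison). A minimum of 10 counts, reached in 6 libraries (in comparisons also in 12 of the 24 columns), was asked of each gene before testing by edgeR 4.0.16 in R 4.3.3, with genes adjusted together by Benjamini-Hochberg. DESeq2 1.42.0 and limma 3.58.1 served as alternatives. SEs of ranges and peaks are by the delta method. Curves per replicate used log2 CPM with 0.5 counts added. Tests were tested on simulated data. Figures used matplotlib 3.10.9 and tables pandas 2.3.3 in Python 3.11.15.

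The members, gene lists and tests were chosen with earlier results of these data known. Named are all measured clock activators, repressors, PAR bZIP factors and outputs, the 20 called genes of widest range with a mean of at least 1 CPM, the 6 smallest p per 6 h of peak time, in other lists the called genes (at most 6) or else the 2 of smallest p, the 10 smallest p under the threshold per difference in rhythm with any clock list member under it, and up to 5 called in the 12 h test. Alternatives covered scaling, filters, thresholds, tools, time as a factor, the replicate number as a block and leaving out each library. UT and NT of one number and time are from the same mouse, and their deviations correlated at all 6 times (r from 0.19 to 0.48 over 8967 genes). The 2 samples per time are separate mice. Levels at 0 are read against 3 counts, and that floor covers counting error only. Results of some named genes are not reported here.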

Additional observations from a re-analysis of the deposited data

Results flagged for a closer look

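The following rhythms differed by a test of the difference itself. Against mRNA of the same livers, edgeR's quasi-likelihood test gave adjusted p of 0.00938 for Gstm6, 0.0307 for Ugt1a10 and 0.0449 for each of Cyp2a5, Vps13a, Pgrmc2 and Cyp2c23. Between Cry1-/- Cry2-/- and WT, the same test gave adjusted p of 0.000142 for Nr1d1, 0.000593 for Ciart, 0.000633 for Tymp, 0.001003 for Dbp, 0.00693 for Clpx, 0.00703 for Arntl, 0.00762 for Per3, 0.0181 for Slc45a3, 0.0237 for each of Nr1d2, Cyp2a5 and Elovl3, 0.0252 for Tef, 0.0358 for B3gat3 and 0.0480 for Gstm6. Cyp2a5 and Gstm6 are in both groups. With 2 mice per time, no group was large enough to single out a mouse by its distance from the others.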

How the results depend on the processing

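For the rhythm of whole liver pre-mRNA (127 genes), other scalings and count filters gave 110 to 127 and limma 148. DESeq2's likelihood ratio test called 624, with all 127 among them, time as a factor called 17 (15 shared), and thresholds of 0.01 and 0.1 gave 5 and 243. A replicate block gave 25, all shared. The cause of these differences was not tested. Same-numbered mice of different times did not deviate together (median r = -0.017, 1 of 15 pairs over 0.1), so the numbers do not pair the samples. Leaving out each mouse gave 6 to 128 calls. The difference between pre-mRNA and mRNA, fitted with each library as a block, gave 6 genes, 14 without the library block (3 shared), and 0 to 7 when mice were left out (3 or fewer for 10 of the 12 mice). The difference between whole liver and nuclei gave 0 genes, also with the mouse as a block, and 1 when all genes with at least 1 count were tested. The difference between genotypes gave 19 genes, 17 with a replicate block (16 shared), and 8 to 23 when mice were left out. It fell to between 8 and 12 without either WT mouse of ZT8, WT ZT12 replicate 1, knockout ZT0 replicate 1, knockout ZT8 replicate 2 or either knockout mouse of ZT12. For the 12 h component the range was 0 to 2. Among named genes that passed in a main fit, none had its fitted peak, or that of its difference, moved by over 6 h under these alternatives. Named genes that did not pass were not checked for this. Depth limits genes such as Ciart, where 3 counts correspond to 0.144 CPM in the shallower library of ZT0.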

Other observations

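The time of each library was read from the 11 called genes of the clock activator, repressor and PAR bZIP lists, by placing it on curves fitted without that mouse. The genes were called with that mouse included, so the reading is not independent of it. Whether departures of these genes from a cosine shape shift such readings was not tested. The reading is a description with no test. Read in this way, whole-liver pre-mRNA of the 2 ZT8 mice stood at ZT9.35 and ZT10.6, that is 1.35 and 2.60 h later than labelled, and that of the 2 ZT20 mice at ZT18.0 and ZT19.0, which is earlier. The ZT0 mice stood at ZT0.10 and ZT22.6 and the ZT4 mice at ZT3.30 and ZT5.30. Nuclear pre-mRNA of the same livers gave ZT22.4 for ZT0 replicate 2, ZT5.05 for ZT4 replicate 2, ZT10.2 for ZT8 replicate 2 and ZT17.6 for ZT20 replicate 1. The populations parted for ZT12 replicate 2, at ZT12.2 in whole liver and ZT7.50 in nuclei.

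The 2 mice of a time differed by over 4-fold (with 0.1 CPM added) in few of the 97 named genes. Replicate 2 was higher in 10 and lower in 2 of them at ZT4, and lower in 4 and higher in none at ZT12.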
